A study of Mus musculus with 182 samples.

Results

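The Kruppel-like factors described here are Klf2, Klf3, Klf4, Klf5, Klf6, Klf9, Klf11 and Klf17, chosen by gene symbol and followed from the oocyte to the 64-cell stage. All 8 were found among the 24499 genes of the deposited count table and among the 20711 genes of the length-scaled table, and 7 of them, all but Klf2, among the 15253 genes with an allelic fraction. The study measured polyadenylated RNA in 182 single mouse cells, namely 7 oocytes, 106 wild-type blastomeres and 69 blastomeres from embryos labelled with a deleted paternal Xist allele. Oocytes came from C57BL/6J (B6, 4 cells) or Cast/EiJ (Cast, 3 cells), and embryos were hybrids written BC (B6 mother, Cast father) or CB (Cast mother, B6 father). Wild-type cells, genotype Xist wt/wt, were taken from embryos of 2, 4, 8, 16, 32 and 64 cells (written 2C, 4C, 8C and so on) from both crosses and both sexes, except that no 4C CB male was present. Cells of genotype Xist wt/ko, called labelled mutant below, were all CB and covered females at 8C, 16C, 32C and 64C and males at 32C and 64C. Cells were grouped by stage, cross, sex and genotype, and the counts of a group of 1 to 25 cells were summed and scaled to counts-per-million (CPM).

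Kruppel-like factors are transcription factors whose C-terminal zinc fingers bind GC-rich boxes and CACCC boxes. Their N-terminal parts differ, so that some activate and others repress, through acetyltransferases such as Ep300, CtBP corepressors or the Sin3a complex. In mouse embryonic stem cells Klf2, Klf4 and Klf5 act as partly redundant pluripotency factors, Klf4 downstream of LIF and Stat3. Klf5 is needed in the mouse blastocyst for both the trophectoderm, the outer layer, and the inner cell mass. Klf17 is an early-embryo member, expressed in mouse oocytes and cleavage embryos. Klf3 binds CtBP and mostly represses, Klf11 recruits Sin3a, Klf9 is a short, glucocorticoid-responsive factor, and Klf6 is an immediate-early factor with roles in injury and proliferation.

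Klf17, Klf11, Klf4, Klf6 and Klf5 are the members whose level changed from 2C to 64C in the results, and the promoters of the first 4 can be set side by side from the RefSeq windows of build GRCm38.p6 that reach from 250 bases before to 50 after a gene's start. Klf5 had no entry. Each of the 4 held the GC box letters GGGCGG, searched on both strands, the motif class that the family itself binds. One match is set in capitals, in windows of 30 bases read along the gene's strand: chr4:117765666-117765695 (minus strand) for Klf17, chr12:24651339-24651368 (plus) for Klf11, chr4:55532559-55532588 (minus) for Klf4 and chr13:5861414-5861443 (plus) for Klf6.
Klf17: gtggccttgactCCGCCCagtgctcagagg
Klf11: ctccgtggcgccCCGCCCctcccgcgcctc
Klf4: aagaaaggcaggGGGCGGggcctggcggcg
Klf6: gggtaccgtgggGGGCGGagctccaagctg
Klf17 and Klf11 fell, and Klf6 and Klf4 rose, the last by edgeR but not on the length-scaled signal. Both pairs carried this box, read as CCGCCC where it lies on the other strand. Of the 7 members with an entry 6 had GGGCGG, 4 had CACCC and 4 had CCAAT, against 35.7%, 57.5% and 37.4% of 32851 windows of the same length. A match of letters is a description of the sequence and not evidence of binding.

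Total counts per cell ranged from 2.54 to 40.05 M counts (M, mega), with a median of 8.78 M counts. The labelled genotype was checked on Xist, which had a median of 98.5 CPM in wild-type females of 16C to 64C and 0.0995 CPM in females labelled mutant. At 8C, however, 2 of the 7 cells labelled mutant, numbered 7 and 9, held 21.2 and 80.6 CPM of Xist, against their label. The 2C CB female group is 1 cell whose title and strain label differ. Of the 14 trophectoderm markers listed, 13 could be tested and 10 rose between 2C and 64C, and in oocytes 5 of 10 cumulus and granulosa markers had reads, with sums of 11.9 to 46.3 CPM. The labels name no embryo, so 1 group was taken as 1 sample. The p-values measure the spread between groups, which may be technical. In the main fit of stages this spread also takes in differences of cross and sex.

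Klf17, Klf2 and Klf11 were present in oocytes. Klf17 stood at 199 CPM in B6 and 136 CPM in Cast oocytes. It then stood at 372 to 1185 CPM in the 4 groups of 2C and at 1865, 2074 and 2480 CPM in the 3 groups of 4C. All 4C groups exceeded all 2C groups, and the 8C groups, at 300, 328, 544 and 634 CPM, fell below all of them. At 16C the CB male group of 1 cell had 2.11 CPM and the others 40.4, 45.1 and 111 CPM, all under the 8C values. At 32C the 4 groups ranged from 0.0251 to 2.30 CPM and at 64C from 0 to 13.4 CPM. The 20 cells of 64C held 682 reads of Klf17 in all, 587 of them in 1 BC male cell with 82.1 CPM, and the median cell held none.

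Klf11, a Sin3a-binding factor, had 31.1 and 52.9 CPM in the oocyte groups and 76.5, 125, 172 and 181 CPM in the 2C groups, which did not overlap. The 16C groups held 22.1 to 43.7 CPM and the 32C groups 1.10 to 16.1 CPM, again without overlap. The 64C groups, at 6.69, 10.8, 27.1 and 30.3 CPM, lay within the combined range of 16C and 32C. Klf2, the pluripotency factor that is also known from endothelium and lymphocytes, did not follow a single course. Its groups spread from 2.37 to 184 CPM at 2C, where the single BC male cell was lowest, and from 18.02 to 67.7 CPM at 4C. All 8C groups (81.1 to 181 CPM) exceeded all 4C groups, and all 32C groups (2.72 to 17.5 CPM) lay below all 16C groups (23.98 to 230 CPM). At 64C Klf2 reached 213 CPM in the 2 CB male cells and stood at 3.14 to 32.5 CPM in the other groups.

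Klf9 and Klf3 were nearly without reads in oocytes and present in every 2C group. Klf9 had 2 reads over all 7 oocytes and 54.1, 62.1, 72.2 and 97.6 CPM in the 2C groups. The ratio of the summed levels was 802, with a 95% counting interval of 222 to 6628. Klf9 then stayed between 2.87 and 153 CPM, with its lowest values in the 8C and 16C CB males, each of them 1 cell. Klf3 had no read in the oocytes and 18.1, 18.2, 21.1 and 34.4 CPM in the 2C groups, at least 191-fold higher than the floor of 3 counts over the 7 oocytes. All 3 groups of 4C, at 0.782, 0.940 and 3.24 CPM, lay below all groups of 2C. From 8C on Klf3 ranged from 0.151 to 27.1 CPM.

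Klf4, Klf5 and Klf6 were low or without reads in oocytes and took different courses. Klf4 had 5.60 and 14.05 CPM in the oocyte groups and 47.1, 58.8, 84.2 and 109 CPM in the 2C groups, which did not overlap. From 4C on it stayed between 33.7 CPM (32C CB female) and 355 CPM (64C CB male). Klf5 had no read in oocytes, 0.705 to 6.93 CPM in the 2C groups and 0.175 to 3.79 CPM in the 4C groups. At 8C the BC groups reached 308 (female) and 330 CPM (male), while the CB groups had 5.42 and 6.01 CPM, so that the group sums of the crosses did not overlap. Single cells did overlap, since 9 of the 24 BC cells had 0 to 26.7 CPM and the 5 CB cells 0.290 to 16.6 CPM. The 64C groups held 118, 142, 156 and 244 CPM of Klf5. Klf6 had 1 read over the oocytes, no read in 6 cells of 2C, 5 reads in 10 cells of 4C, and 0.444 to 2.51 CPM in the 8C groups. It ranged from 6.49 to 22.2 CPM at 32C and stood at 56.7, 75.2 and 85.0 CPM at 64C, with 1.20 CPM in the 2 CB males.

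**Figure D1:**
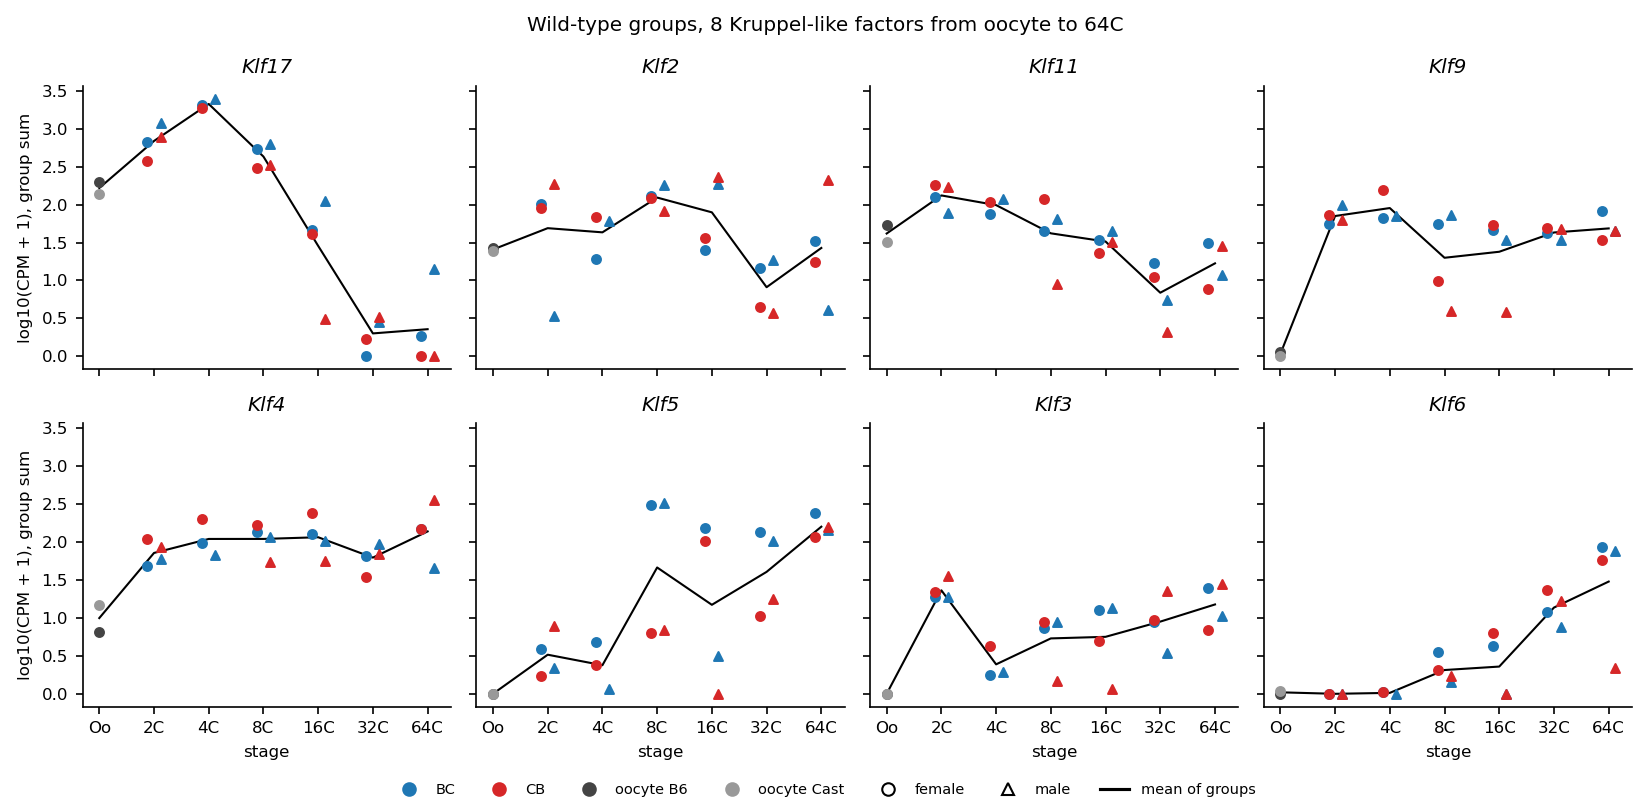
Summed level of each Kruppel-like factor in the 25 wild-type groups, as log10(CPM + 1), against stage (Oo, oocyte). Points are groups, blue for BC and red for CB, circles for females and triangles for males, with oocytes in grey, and the line joins the mean of the groups. Klf17 peaks at 4C, with groups of 1865 to 2480 CPM, and Klf6 is highest at 64C, while the group sums of Klf5 at 8C are 308 and 330 CPM in BC and 5.42 and 6.01 CPM in CB, with single BC cells at both levels.

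Levels of different members were compared on the length-scaled signal of the authors (their RPRT values). Reverse transcription ran from the 3′ end, and how far counts follow length was not tested. For a given gene the ratio of that signal to CPM varied between cells, so it is not a fixed length correction. By the median over cells of that signal, Klf17 was first from the oocyte to 8C, with 273 at 2C, 592 at 4C and 163 at 8C. Its group means overlapped those of the next member at 2C and 8C, but not in oocytes, where the next was Klf2 at 33.8, or at 4C, where it was Klf4 at 62.3. At 16C Klf5 (69.8) and Klf4 (58.8) came first, at 32C Klf4 (26.6) and Klf5 (19.8), and at 64C Klf5 (112) and Klf4 (48.3), each pair with overlapping groups. Klf17 was last at 32C and at 64C, with a median of 0 at both, and Klf6, last at 8C and 16C, came after Klf5, Klf4 and Klf9 at 64C with 10.4.

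Consecutive stages were compared with edgeR over 16622 genes, all 8 members among them, and an adjusted p below 0.05 counted as a call. From oocyte to 2C, 2 members rose, Klf9 (log2 change 8.28, SE 1.51, adjusted p = 0.000216) and Klf3 (12.37, SE 2.81, adjusted p = 0.00179), the size of the latter depending on how reads of 0 are handled. Over all genes, 13.8% rose and 13.2% fell in that step, 27% in all. DESeq2 called 3 members in this step, Klf5 besides these 2. By group values alone, 6 members (Klf3, Klf4, Klf5, Klf9, Klf11 and Klf17) were higher in every 2C group than in both oocyte groups, as were 31.5% of all genes. The scaling moved oocytes and 2C cells apart, since the mean log2 scaling factor (TMM) was -0.90 in oocytes, 0.51 at 2C, 0.16 at 4C and between -0.11 and 0.04 from 8C on. Klf4 and Klf17 rose 7.71-fold and 4.34-fold in unscaled CPM sums and by 1.58 (SE 0.73, adjusted p = 0.109) and 0.72 (SE 1.38, adjusted p = 0.740) on the scaled log2 measure.

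None of the 8 members passed the edgeR test in the 5 later steps, in which 9.53% (2C to 4C), 0.457% (4C to 8C), 0.614% (8C to 16C), 0.632% (16C to 32C) and 0.138% (32C to 64C) of all genes were called. At an unadjusted p below 0.05 there were 1, 2, 1, 3 and 2 members in these steps, and DESeq2 called 1, 2, 0, 2 and 0. The nearest was Klf17 from 16C to 32C (log2 change -5.36, SE 1.32, adjusted p = 0.0553). Klf3 from 2C to 4C had a log2 change of -3.47 (SE 1.25, adjusted p = 0.0772), and Klf5 from 4C to 8C one of 6.45 (SE 1.86, adjusted p = 0.114). These 3 members were below the threshold when the 16C CB male group of 1 cell was left out, with adjusted p = 0.0426 for Klf17, 0.04997 for Klf3 and 0.0483 for Klf5. Leaving out the 64C CB female, BC male or CB male group did the same for Klf17 (adjusted p = 0.0290, 0.0157 and 0.0273). In simulated counts with a dispersion of 0.5, the edgeR fit of 4C to 8C called 7% of 4-fold and 85% of 16-fold changes. A missing call from 4C to 8C is therefore not a sign of an unchanged level. The other steps were not simulated, so a missing call there is not read as such a sign either.

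Some members had groups that did not overlap between consecutive stages in these later steps. From 2C to 4C, Klf17 was higher in every later group, as were 12.4% of all genes, and Klf3 lower, as were 15.6%. From 4C to 8C, Klf2, Klf5 and Klf6 were higher (4.99% of all genes) and Klf17 lower (10.2%). From 8C to 16C only Klf17 was lower (4.61%) and none higher (2.01%), and from 16C to 32C Klf2 and Klf11 were lower (2.93%) and Klf6 higher (4.67%). From 32C to 64C the groups of all 8 members overlapped, where 2.41% of all genes were higher and 3.1% lower.

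Over the whole span from 2C to 64C, 5 of 8 members changed by edgeR, a comparison chosen after seeing the data. Klf6 rose (log2 change 14.28, SE 2.47, adjusted p = 0.000143), and against the floor of 3 counts over the 2C cells it was at least 723-fold higher at 64C. Klf5 rose (6.38, SE 1.63, adjusted p = 0.00417), and so did Klf4 (1.79, SE 0.57, adjusted p = 0.0159). Klf17 fell (-6.99, SE 1.42, adjusted p = 0.000548), and so did Klf11 (-2.25, SE 0.73, adjusted p = 0.0178). Klf2 (-0.01, SE 0.96), Klf3 (0.14, SE 1.01) and Klf9 (0.15, SE 0.74) did not pass, with adjusted p between 0.912 and 1. For Klf3 the sign depended on the method, with log2 changes of -2.10 and -3.10 by limma on cell means (pseudocounts of 1 and 0.1) and -2.42 on the length-scaled signal, each of them called (adjusted p = 0.0160, 0.0216 and 0.00271). Of all genes, 18.3% rose and 20.6% fell over this span, so that 38.9% were called, and the median log2 change was 0.

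Of the 5, Klf5, Klf6, Klf11 and Klf17 also had groups that did not overlap between 2C and 64C (13.5% of all genes were higher and 21.5% lower in every 64C group). The change in Klf4 was not called with limma on cell means (log2 change 0.42, adjusted p = 0.608 with a pseudocount of 1) and turned to -0.66 (adjusted p = 0.329) on the length-scaled signal. Without the 64C CB male group it was 1.26 (adjusted p = 0.0873). Klf11 was not called without the 2C CB female cell (adjusted p = 0.0531) or without the 64C CB female group (adjusted p = 0.0547). A test of any difference among 2C to 64C called Klf17 (adjusted p = 1.15e-05), Klf6 (4.18e-05), Klf11 (0.00333) and Klf5 (0.00577), where 53.9% of all genes were called. In that test Klf2 (adjusted p = 0.0639) passed without the 2C BC male, 16C BC female, 64C BC male or 64C CB male group (0.0293, 0.0497, 0.04001 and 0.0157). Klf4 (adjusted p = 0.0699) passed without the B6 or Cast oocytes or the 8C BC male, 16C CB male or 64C BC male group (0.0395, 0.0406, 0.0478, 0.0252 and 0.0270).

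The genes around the family moved as follows from 2C to 64C, each list chosen with earlier results of these data known and each count to be read beside the 18.3% of all genes that rose and the 20.6% that fell. Of the 10 other Kruppel-like factors listed, 7 could be tested, and Klf7 rose (log2 change 8.50, SE 3.11) while Klf16, a repressor of the same family, fell (-2.70, SE 0.68). Of the 9 related Sp factors, which bind the same boxes, 7 were tested, none rose, and Sp5, Sp7 and Sp3 fell (-9.73, -8.69 and -2.31). Of 6 genes of LIF signalling only Stat3, the transcription factor upstream of Klf4, rose (2.25, SE 0.57). Of 9 pluripotency partners 4 rose, led by Tfcp2l1 (5.32), Sox2 (4.44) and Pou5f1 (3.39), and Nr5a2, a nuclear receptor, fell (-4.12). Of 9 cofactors 3 rose, the corepressors Ctbp1 (7.56) and Ctbp2 (3.02) and the deacetylase Hdac2 (1.75), and 2 fell, the acetyltransferase Ep300 (-5.83) and Sin3a (-1.21). The median log2 change was 0.15 over the 8 members, 1.96 over the other Kruppel-like factors, -1.44 over the Sp factors, 1.37 over LIF signalling, 1.58 over the partners and 0.46 over the cofactors, beside 0 over all genes.

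Single cells of 8C BC embryos fell into separate levels of Klf5 that ran with the number in their title. The 9 cells numbered 1 to 14 (8 females and 1 male) had 0 to 26.7 CPM of Klf5, with a median of 0.107 and no read in 4. The 15 cells numbered 31 to 51 (11 females and 4 males) had 178 to 602 CPM, with a median of 371, so the sets did not overlap. Klf2 did not overlap either, at 0 to 29.1 CPM (median 2.63) in the first set and 60.7 to 318 CPM (median 201) in the second. The sets were chosen after seeing the data, and the share of all genes without overlap between them was not computed. Whether the separation is particular to these members is therefore not known. Klf11 had medians of 3.39 and 60.99 CPM with overlapping ranges. Klf17 went the other way, with medians of 716 CPM (571 to 1222) in the low-numbered set and 495 CPM (217 to 1067) in the other, again with overlap. What the numbers mark is not stated in the labels, so number and embryo cannot be told apart.

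Other measures moved with these sets. Median depth was 4.67 M counts in the cells numbered 1 to 14 and 10.49 M counts in the others, with medians of 9258 and 10286 detected genes. The 14 trophectoderm markers summed to 111 to 544 CPM in the first set and to 660 to 1191 CPM in the second. The 10 cumulus and granulosa markers summed to 0.286 to 38.5 and 40.2 to 378 CPM. The part of depth and of these markers in the Klf5 and Klf2 levels was not tested. The 5 wild-type CB cells of 8C had 0.290 to 16.6 CPM of Klf5, like the low-numbered BC cells, but 44.9 to 244 CPM of Klf2, and the 7 CB cells labelled mutant had 0.424 to 13.9 CPM of Klf5 and 4.66 to 42.1 CPM of Klf2. Low Klf5 at 8C was thus found in BC, in CB and in cells labelled mutant, and the wild-type CB cells with low Klf5 had Klf2.

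**Figure D2:**
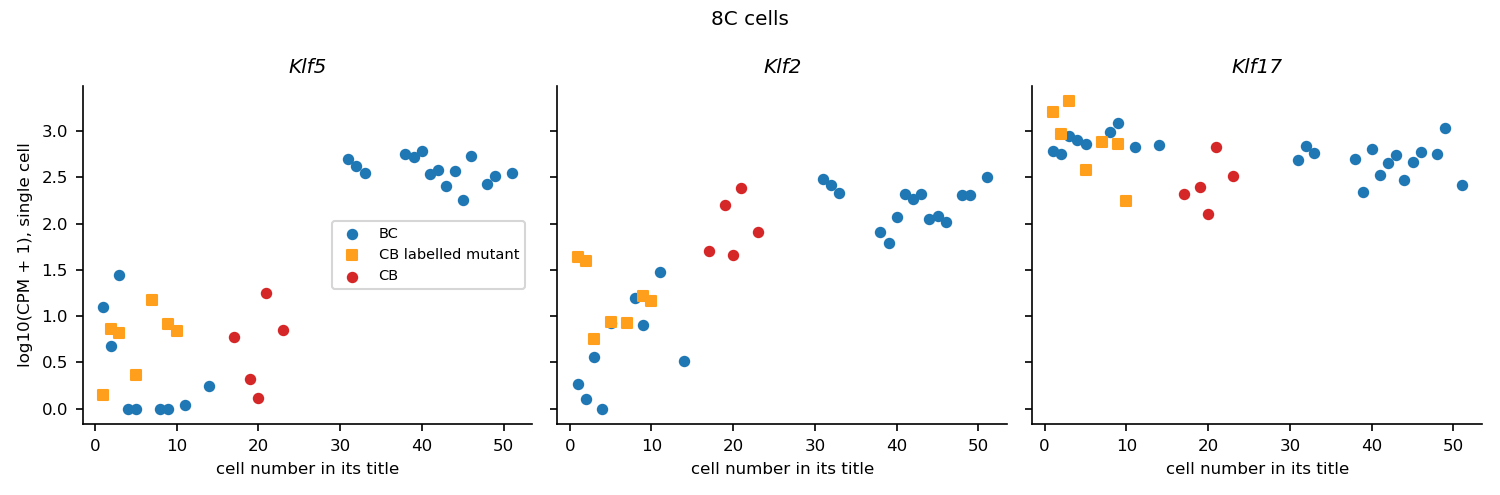
Level of Klf5, Klf2 and Klf17 in each 8C cell, as log10(CPM + 1), against the number in the cell's title. Circles are wild-type BC (blue) and CB (red) cells, and squares are CB cells labelled mutant. BC cells numbered 31 to 51 have 178 to 602 CPM of Klf5, above all other 8C cells, whereas Klf17 ranges overlap.

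At 16C wild-type cells with low and high title numbers, which are also the males (numbers 3 to 37) and the females (46 to 71), differed in the same pair of genes. The 4 wild-type males had 0 to 4.51 CPM of Klf5 and 186 to 230 CPM of Klf2. The 11 females had 35.4 to 318 CPM of Klf5 and 3.24 to 66.7 CPM of Klf2, with no overlap in either gene. The share of all genes that separated in the same way was not computed. Klf6 had no read in the 4 males and a median of 0.220 CPM in the females. Epiblast markers summed to 2073 to 2881 CPM in these males and 270 to 804 CPM in the females, and males were shallower, at medians of 5.63 M counts against 9.84 M counts. Neither was tested as a factor here, and sex, title number and embryo cannot be told apart. The 12 females labelled mutant had 2.79 to 111 CPM of Klf5, which reached into both ranges. Their Klf2, at 1.22 to 109 CPM (median 39.5), overlapped that of the wild-type females (median 32.8) and lay below that of all wild-type males.

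The reciprocal crosses were compared with edgeR within pairs of stage and sex over 16171 genes, and no member passed (0.0124% of all genes were called). At an unadjusted p below 0.05 there was 1 member, Klf5, which DESeq2 also called. Klf5 had a log2 difference of BC over CB of 2.24 (SE 0.67, adjusted p = 0.306), was higher in BC in 9 of 11 pairs and was lower in the 2C and 64C males. Pairs near the floor were among the 9, such as 16C males at 2.14 against 0 CPM. Over all genes the median log2 difference was 0.33 towards BC, and the share of genes higher in as many pairs was not computed. At 8C the BC sums of Klf5 came almost wholly from the 15 cells numbered 31 to 51. When each stage was tested by itself over 17561 genes, a choice made after seeing the data, Klf5 differed at 8C by 4.96 (SE 1.80, adjusted p = 0.273) and Klf9 by 2.91 (SE 0.96, adjusted p = 0.230). Klf9 had 54.7 and 71.4 CPM in the BC groups and 8.92 and 2.95 CPM in the CB groups, and its 8C BC cells numbered 1 to 14 held as much as the others (medians 61.9 and 51.2 CPM). At 64C Klf17 differed by 8.31 (SE 1.72, adjusted p = 0.123), with 13.4 CPM in BC males and none in the 2 CB males. That BC value rests mostly on 1 cell of 82.1 CPM, since the other 11 BC cells of 64C were below 10 CPM, 6 of them without a read, and the female groups had 0.840 and 0.0203 CPM. This adjusted p fell below the threshold without the 16C CB female (0.0182), 16C CB male (0.0170), 32C BC female (0.0328), 32C BC male (0.0332) or 64C BC female group (0.0252). Adjusted p was below 0.05 in 0.154% of all genes at 2C, 0.0399% at 32C, 0.0285% at 64C and in 0.0% at 4C, 8C and 16C, and DESeq2 called Klf5 and Klf9 at 8C and Klf17 at 64C. None of the 8 members had a cross difference that itself differed between stages (adjusted p below 0.05 in 0.0285% of all genes), and leaving out the 16C CB female group brought Klf17 to 0.0411 in that test.

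At 64C the cells separated by trophectoderm markers, and median levels of Klf4 and Klf2 were higher on the marker-low side. The 14 markers, summed as log2(CPM + 1), lay between 7.57 and 9.21 in 7 wild-type cells and between 11.5 and 14.6 in 13, and the dividing value of 10 was set after seeing the data. Klf4 was 99.6 to 545 CPM (median 226) in the 7 marker-low cells and 1.26 to 459 CPM (median 52.7) in the 13 marker-high cells. Klf2 was 0 to 218 CPM (median 34.9) and 0 to 25.7 CPM (median 0.262). The ranges overlapped for both. In wild type the sides nearly coincided with the crosses, as 6 of the 7 marker-low cells were CB and 11 of the 13 marker-high cells BC, so that side and cross can hardly be told apart there. Klf5 was present in all 20 cells, at medians of 93.5 and 189 CPM, and Klf6 at medians of 24.7 and 82.5 CPM. Epiblast markers summed to medians of 3361 CPM in the marker-low cells and 2202 CPM in the marker-high cells.

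The cells labelled mutant were all CB and were found on both sides, and the difference between genotypes was not tested. Klf4 was 34.2 to 471 CPM (median 236) in 22 marker-low cells and 0 to 35.8 CPM (median 1.76) in 8 marker-high cells. Klf2 was 0 to 126 CPM (median 24.2) in the former and at most 0.872 CPM in the latter. Klf5 had medians of 83.1 and 104 CPM and Klf6 of 7.55 and 39.9 CPM. The groups did not hold both kinds of cell evenly: the 6 BC males were all marker-high, and the 2 CB males, the group with 355 CPM of Klf4, 213 CPM of Klf2 and 1.20 CPM of Klf6, were both marker-low. The part of this uneven make-up in differences between 64C groups was not tested.

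**Figure D3:**
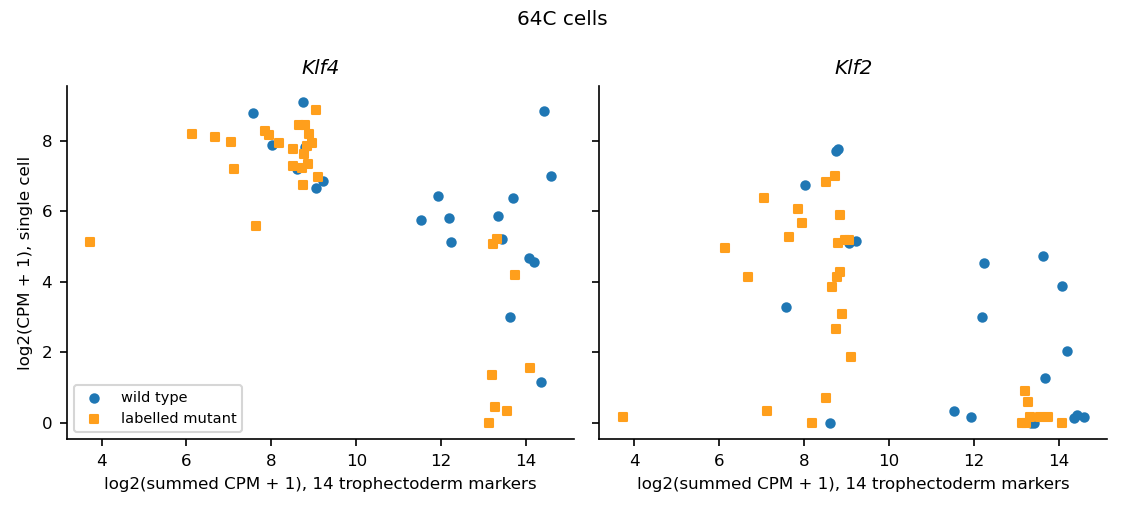
Level of Klf4 (left) and Klf2 (right) in each 64C cell, as log2(CPM + 1), against the summed level of 14 trophectoderm markers, as log2(summed CPM + 1). Circles are 20 wild-type cells and squares 30 cells labelled mutant. Cells to the right of 10 have median Klf4 levels of 52.7 CPM (wild type) and 1.76 CPM (labelled mutant), and cells to the left 226 and 236 CPM.

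Deletion of paternal Xist, the question behind the labelled mutant cells, was compared within CB. In females of 8C to 64C (14304 genes) edgeR called no gene and no member (0.0% of all genes), with 512 genes and 1 member at an unadjusted p below 0.05, and DESeq2 called 203 genes and no member. The 1 member was Klf17, with 1028, 67.6, 3.09 and 0.337 CPM in the groups labelled mutant at 8C, 16C, 32C and 64C and 300, 40.4, 0.700 and 0.0203 CPM in the wild-type groups. It was higher in 4 of 4 stages (log2 difference 1.71, SE 0.48, unadjusted p = 0.00489, adjusted p = 1.0). Its wild-type value at 64C was 1 read over all wild-type CB cells of that stage. The share of all genes higher in 4 of 4 stages was not computed, and the median log2 difference over all genes was 0.12. The other 7 members differed by -1.23 (Klf3, SE 1.14) to 0.47 (Klf9, SE 0.70). With the male pairs of 32C and 64C added (14359 genes, 541 at an unadjusted p below 0.05, 0.0% called) the difference in Klf17 was 0.94 (SE 0.92). The interaction with sex (13321 genes, 435 at an unadjusted p below 0.05, 0.0% called) called no member either, and DESeq2 called none in both tests. For Klf17 the genotype difference in males minus that in females was -7.99 (SE 4.87), from groups with at most 3.09 CPM.

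The allelic fraction was read as the paternal share of allele-assigned reads, 0 when all come from the mother's allele and 1 when all come from the father's. The reads behind a share are not given, so depth per share is unknown, and shares were used in cells with at least 10 counts of the gene. In oocytes Klf17 had a share of 0 in all 6 cells with a value. At 4C, its peak, the share was 0.409 to 0.550 in 7 BC cells and 0.539 to 0.572 in 3 CB cells. At 8C it was 0.326 to 0.871 in 24 BC cells (median 0.531) and 0.0492 to 0.366 in 5 CB cells (median 0.223).

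Across 8C to 64C the share of Klf4 differed between the crosses. Its mean over 8 groups was 0.690 in BC and 0.393 in CB (difference 0.297, SE 0.074, limma adjusted p = 0.0164), 1 call among 6 members tested, where 5.52% of 8326 genes were higher and 8.16% lower in BC. In single cells the median was 0.708 in 56 BC cells, 44 of them above 0.5, and 0.378 in 29 CB cells, 18 of them below. Since the paternal allele is that of Cast in BC and that of B6 in CB, the Cast allele gave the larger part in both. The cells labelled mutant, also CB, had a median of 0.207, with 53 of 61 below 0.5. By stage the BC medians were 0.726, 0.711, 0.677 and 0.667 and the CB medians 0.453, 0.437, 0.403 and 0.330 from 8C to 64C, BC above CB at each.

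Klf5 leaned the same way without passing the test, with group means of 0.738 in BC and 0.463 in CB (difference 0.239 within stage, SE 0.105, adjusted p = 0.188). Its cell medians were 0.749 (46 BC cells), 0.343 (14 CB cells) and 0.161 (46 cells labelled mutant). Klf17 had a fitted difference of 0.271 (SE 0.092, adjusted p = 0.125), although its plain group means were 0.487 and 0.486, with 1 informative CB cell at 32C (share 1) and 1 BC cell at 64C (0.00625). Klf9 leaned the other way, at 0.334 in BC and 0.655 in CB (adjusted p = 0.289), as did Klf11 at 0.444 and 0.685 (adjusted p = 0.586), and Klf3 stood at 0.723 and 0.731 (adjusted p = 0.964). Klf6 had too few groups to be tested and had cell medians of 0.10 (7 BC cells), 0.0435 (5 CB cells) and 0.451 (14 cells labelled mutant).

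**Figure D4:**
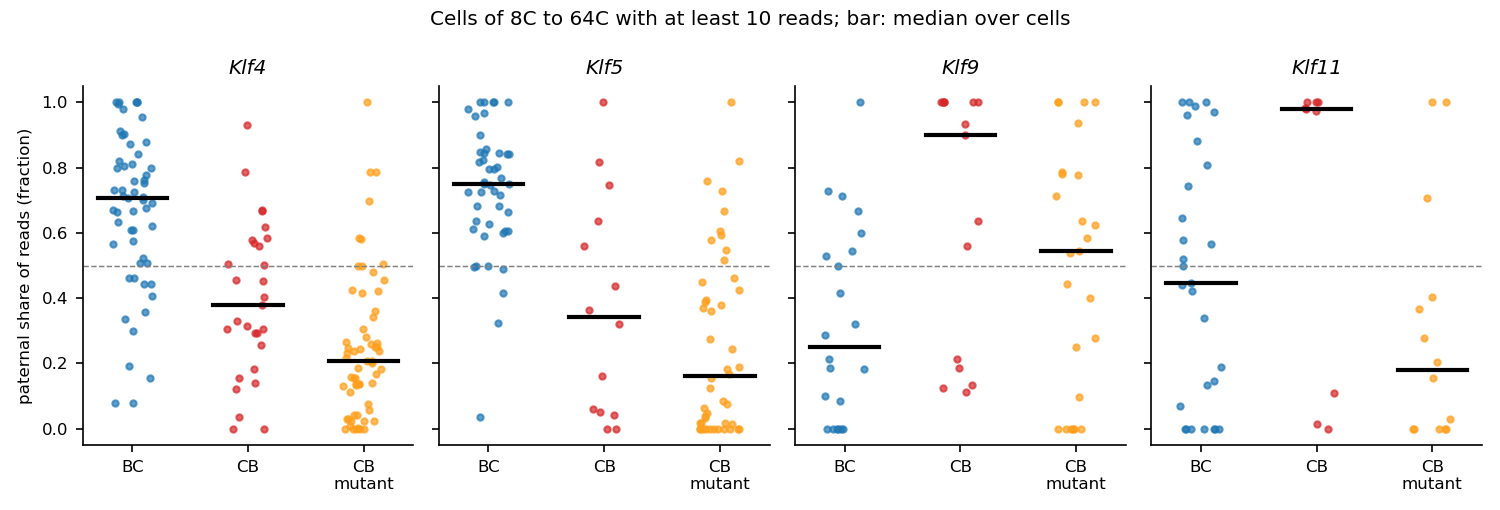
Paternal share of reads (fraction) of Klf4, Klf5, Klf9 and Klf11 in cells of 8C to 64C with at least 10 counts of the gene. Points are cells of BC, CB and CB labelled mutant embryos, bars are medians over cells and the dashed line is 0.5. Klf4 medians are 0.708, 0.378 and 0.207 in that order.

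No member passed 3 further tests of the share with limma. The mean of both crosses differed from 0.5 in 4.68% of 8330 genes, and among 6 members only Klf3 reached an unadjusted p below 0.05, with a mean of both crosses 0.227 above 0.5 (SE 0.094, adjusted p = 0.295). The stages 2C and 4C differed from 8C to 64C in 2.86% of 7858 genes, and no member of 4 tested reached an unadjusted p below 0.05. Between genotypes in CB females 0.0% of 7080 genes were called and 393 had an unadjusted p below 0.05. Among 4 members tested there, Klf11 had group means of 0.252 (labelled mutant) and 0.83 (wild type), a difference of -0.577 (SE 0.075, unadjusted p = 0.000718, adjusted p = 0.739), and Klf4 of 0.227 and 0.384 (adjusted p = 0.857). Klf11 was the only one of the 4 with an unadjusted p below 0.05, and its wild-type CB shares came from 1 to 3 cells a stage.

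Across the 25 wild-type groups, which differ in depth and cell number, the genes most like a member were found by Pearson's r of log2(CPM + 1) among 16614 other genes, as a description. For Klf17 they were Bcl2l13 (0.940) and Setd2 (0.927), for Klf5 Gtf2h4 (0.963) and Akap8l (0.956), for Klf6 Capn2 (0.948) and Wnt7b (0.928), and for Klf9 Oxsr1 (0.908) and Tacc3 (0.902). Klf3 was nearest to Fbxl19 (0.862) and Alkbh4 (0.847), Klf11 to 2810403A07Rik (0.857) and Npm2 (0.854), and Klf4 to Gcdh (0.83) and Hdgfrp2 (0.825). Klf2 had the lowest best value, 0.679 with BC024978, followed by Zbtb7a (0.656). Among the members Klf11 and Klf17 were most alike (0.73), followed by Klf3 with Klf9, Klf5 with Klf6 and Klf4 with Klf9 (0.66 each), and Klf6 ran opposite to Klf17 (-0.73) and Klf11 (-0.68).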

How the data were processed

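The labels' protocols describe reverse transcription of polyadenylated RNA of single cells from the 3′ end, amplification and single-end reads of 50 bases. The submitters' processing notes name TopHat2 2.1.0, SAMtools, HTSeq 0.6.1 and build mm10, and use of the strand in counting is not given in the sources used here. As deposited, the main table held raw counts per gene and cell. The authors also deposited a signal scaled for depth and length (RPRT). Its ratio to CPM was not fixed for a gene, at 0.357 to 1.14 for Klf4 over the 173 cells with enough reads. An allelic fraction per gene and cell was deposited as well. The fraction was read as paternal because X-linked genes in males lay at 0.00352 (BC) and 0.00708 (CB). No pair of cells of a group agreed within counting noise. Gene positions in RefSeq (GRCm38.p6, the assembly of mm10) are chromosome 4 at 55527137 to 55532475 for Klf4 and 117756659 to 117765666 for Klf17, chromosome 5 at 64803521 to 64832901 for Klf3, chromosome 8 at 72319062 to 72321654 for Klf2, chromosome 12 at 24651371 to 24662782 for Klf11, chromosome 13 at 5861489 to 5870393 for Klf6, chromosome 14 at 99298691 to 99313412 for Klf5 and chromosome 19 at 23141226 to 23168129 for Klf9.

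Counts were summed over the cells of a group and tested with edgeR 4.0.16 (quasi-likelihood, TMM scaling, filterByExpr) in R 4.3.3 with Benjamini-Hochberg adjustment over all genes tested. Group means of the share were tested with limma 3.58.1, in genes with values in at least 3 groups of each side. DESeq2 1.42.0, other scalings, no filter, limma on cell means with pseudocounts of 1 and 0.1, the length-scaled signal, covariates and leaving out groups were alternatives. Simulated data were used to check only an edgeR step between consecutive stages and the limma comparison of the share between crosses. Intervals and floors cover counting error only, since reads carry no molecular identifiers. Named genes are all members, the 2 most like each member, and up to 3 genes in each direction of each list. Members and lists were chosen with earlier results of these data known. The comparisons of 2C with 64C, of any stage and of crosses within a stage, the sets by title number and the marker split were chosen after seeing the data.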

Additional observations from a re-analysis of the deposited data

Results flagged for a closer look

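Among 39 sets of 4 wild-type groups of a member and stage, 2 held a group far from the others by Dixon's test, where about 1 in 20, or 1.95 sets, would be flagged by chance. At 8C Klf3 was lowest in the CB male group, a single cell with 0.491 CPM, against 6.29 to 7.78 CPM in the other 3 groups. At 64C Klf6 was lowest in the CB male group, 2 cells with 1.20 CPM, against 56.7 to 85.0 CPM in the other 3, and both of these cells had low trophectoderm markers. The part of these markers in the Klf6 value was not tested.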

How the results depend on the processing

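No paired analysis was possible because counts were summed over the cells of a group, so that no title number is left in the fits. The pairing meant here is of single cells by title number, and the labels do not say what these numbers mark. Summing was a choice of the processing. Crosses and genotypes were compared in pairs of groups, by stage or by stage and sex. Counts of members past the threshold moved by more than 1.5 times as follows under the alternatives. From oocyte to 2C, DESeq2, limma and the length-scaled signal called 3 members instead of 2, a smaller move. DESeq2 called 1 member instead of 0 from 2C to 4C (Klf3), 2 from 4C to 8C (Klf5, Klf6), 2 from 16C to 32C (Klf2, Klf17), 1 between the crosses (Klf5), 2 between the crosses at 8C (Klf5, Klf9) and 1 at 64C (Klf17). Limma with a pseudocount of 1 or 0.1 and the length-scaled signal each called 1 from 2C to 4C (Klf3), 1 from 8C to 16C (Klf17) and 2 from 16C to 32C (Klf11, Klf17). No filter, and sex and cross as covariates, each called 1 from 16C to 32C (Klf17). The change of Klf4 from 2C to 64C reversed to -0.66 on the length-scaled signal, and that of Klf3 reversed and was called, at -2.10 and -3.10 (limma, pseudocounts of 1 and 0.1) and -2.42 (length-scaled signal). Leaving out each group in turn gave 0 to 1 members from 2C to 4C, 4C to 8C and 16C to 32C, for crosses at 64C and for their difference between stages, 4 to 5 from 2C to 64C and 4 to 6 for any stage, and no other count moved. Of 4484 alternative values for single members and comparisons, 53 gained a call, 6 lost one and 4 reversed. Leaving out groups was not run for the interaction of genotype and sex, nor DESeq2 for the tests of any difference. The cause of these changes was not tested. Groups of 1 cell, and shares without a depth, limit the precision.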
